A study of Homo sapiens with 6 samples.

Results

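The lysosome is the acidic compartment in which cells break down proteins, sugars, lipids and sulfated polymers, and its enzymes are made as precursors, tagged with mannose 6-phosphate and delivered from the Golgi. Cathepsins digest proteins, glycosidases and sulfatases strip sugar and sulfate groups, lipid hydrolases clear membrane lipids, and proteins of the limiting membrane such as LAMP1 and LAMP2 hold the compartment together. TFEB, TFE3 and MITF are related transcription factors that bind CACGTG-type sites in the promoters of many of these genes, and in breast tumors several cathepsins are known for their part in digesting the matrix around cells.

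The genes described here are 44 rows of the deposited expression table picked by symbol, out of 58676 genes in all: 13 cathepsins and other proteases, 12 glycosidases, 4 sulfatases, 7 lipid hydrolases and lipid-handling proteins, 5 lysosome membrane proteins and the 3 transcription factors of the TFEB family, which regulate lysosomal genes but are not parts of the lysosome. RNA sequencing compared 3 NS control with 3 BCL9 KD samples of DCIS.COM, an established basal-type cell line used as a model of ductal carcinoma in situ (DCIS), and addressed which transcripts differ when BCL9, a transcriptional coactivator of the Wnt pathway, is reduced. NS control cells carried a PLKO.1 non-silencing vector and BCL9 KD cells a PLKO.1 vector with an shRNA against BCL9. Both were lentiviral transductions of the same line grown in medium with 5% horse serum, and each sample came from its own flask. It is not stated whether the flasks of a group came from separate transductions, so p-values measure only the spread between these samples, which may be technical. Expression was given as FPKM, which scales a gene's reads to its length and to the depth of its sample, and rested on 15222452 to 26949026 reads on genes per sample.

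BCL9 itself was lower in BCL9 KD cells, at 2.74 ± 0.139 FPKM against 5.94 ± 0.522 FPKM (SD, n = 3 each). The 6 basal breast epithelium markers were all tested and none passed the test, with summed levels of 1518 to 1764 FPKM in NS control and 1570 to 1597 FPKM in BCL9 KD samples. Of the 6 luminal markers, 4 were tested and none passed, but their summed levels were lower without overlap, at 434 to 551 FPKM in NS control and 396 to 413 FPKM in BCL9 KD samples. The keratin genes KRT8 (262 to 333 FPKM against 242 to 246 FPKM, limma adjusted p = 0.144) and KRT18 (161 to 205 FPKM against 142 to 156 FPKM, limma adjusted p = 0.207) were both below without overlap, and the part of this in the lysosomal values was not tested. GATA3 (log2 fold change −0.04, limma adjusted p = 0.837) and FOXA1 (−0.04, limma adjusted p = 0.812) had overlapping groups. PGR was listed at 0 in all 6 samples and ESR1 was under 0.5 FPKM on average. Of the basal markers, only TP63 lay apart. It was at 12.5 to 17.0 FPKM in NS control and 17.1 to 18.3 FPKM in BCL9 KD samples (limma adjusted p = 0.180).

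BCL9 KD and NS control samples were compared by limma, fitted to log2(FPKM + 0.5), over the 13745 genes with a mean of at least 0.5 FPKM, with Benjamini-Hochberg adjustment over all of them and a threshold of 0.05 on the adjusted p. All 44 lysosomal genes were among the genes tested. CTSL and FUCA2 were higher and ARSB was lower in BCL9 KD cells, and the other 41 did not pass. Across all genes tested, 5.87% passed, 2.96% higher and 2.91% lower in BCL9 KD cells, so 3 of 44 is near the background. The log2 fold change was above 0 for 34 of the 44 genes and for 55.4% of all genes tested, and its median was 0.14 over the 44 genes and 0.04 over all genes tested. With median-of-ratios scaling or quantile normalization, 31 of the 44 were above 0. In bulk RNA, a change in the cells that make up a sample and a change in the RNA per cell cannot be told apart.

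CTSL (ENSG00000135047), which encodes the cysteine protease cathepsin L, lies on chromosome 9 of hg38 from 87725519 to 87731393 on the plus strand. Its level was 9.84, 9.55 and 9.44 FPKM in NS control and 13.1, 16.1 and 16.4 FPKM in BCL9 KD samples, in the order of replicates 1 to 3 here and for every gene that follows. All BCL9 KD samples were above all NS control samples, and BCL9 KD replicate 1 was the lowest of its group. The means were 9.61 ± 0.209 FPKM and 15.2 ± 1.83 FPKM (SD, n = 3 each), a ratio of 1.58, for a log2 fold change of 0.63 with a standard error of 0.0988 (limma adjusted p = 0.0247). Between 340 and 1027 reads lay behind each of these values.

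FUCA2 (ENSG00000001036), which encodes an alpha-L-fucosidase, lies on chromosome 6 from 143494811 to 143511690 on the minus strand. Its level was 17.4, 16.6 and 16.1 FPKM in NS control and 20.5, 22.0 and 21.1 FPKM in BCL9 KD samples. The groups did not overlap, and the SD within each was under 1 FPKM. The means of 16.7 ± 0.648 FPKM and 21.2 ± 0.716 FPKM (SD, n = 3 each) gave a log2 fold change of 0.34 with a standard error of 0.0667 (limma adjusted p = 0.0398), from 684 to 1653 reads per sample.

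ARSB (ENSG00000113273) encodes arylsulfatase B, which removes sulfate from dermatan and chondroitin sulfate, and lies on chromosome 5 from 78777209 to 78986087 on the minus strand. Its level was 5.21, 4.83 and 4.78 FPKM in NS control and 3.53, 3.59 and 3.13 FPKM in BCL9 KD samples. Every BCL9 KD value was below every NS control value. The means were 4.94 ± 0.232 FPKM and 3.42 ± 0.247 FPKM (SD, n = 3 each), a ratio of 0.692, for a log2 fold change of −0.47 with a standard error of 0.0868 (limma adjusted p = 0.0340), from 353 to 850 reads per sample.

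For each of these 3 genes, the exact two-sided permutation test over the 6 samples gave p = 0.1, the smallest p that 3 samples against 3 allow. None passed with the replicate number as a block in the fit, with limma adjusted p of 0.0870 for CTSL, 0.120 for FUCA2 and 0.0990 for ARSB. With NS control replicate 2, BCL9 KD replicate 2 or BCL9 KD replicate 3 left out, none of the 3 passed, with limma adjusted p of 0.120 to 0.138 for CTSL, 0.156 to 0.196 for FUCA2 and 0.136 to 0.168 for ARSB, and without BCL9 KD replicate 1 the value was 0.0536 for both FUCA2 and ARSB. With no filter on low FPKM the limma adjusted p was 0.0725 for CTSL, 0.0737 for FUCA2 and 0.0828 for ARSB, and FUCA2 also missed with median-of-ratios scaling (0.0718) and without the variance trend (0.0682), as ARSB did without the trend (0.0512) and with a length correction chosen after seeing the data (0.0547).

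**Figure D1:**
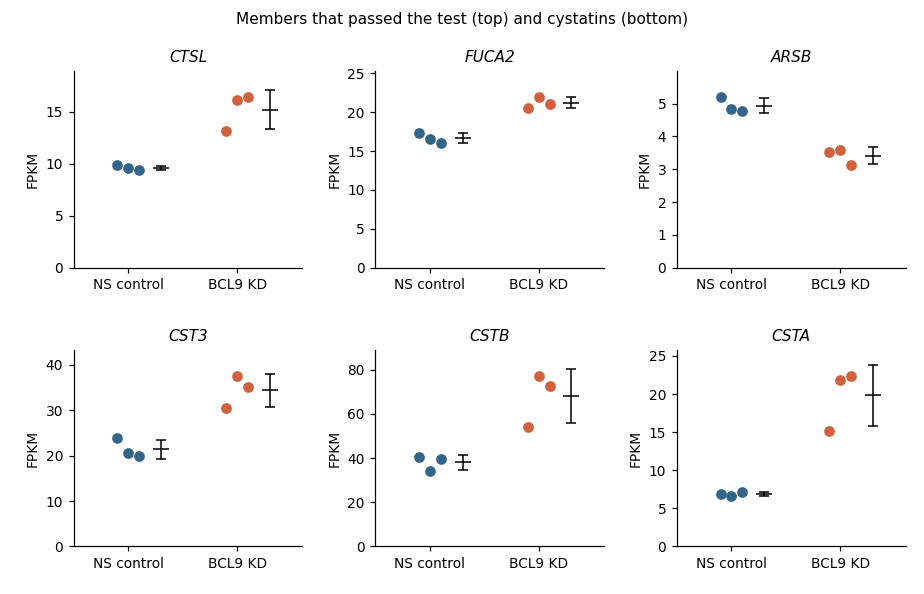
FPKM of the 3 lysosomal genes that passed the test (CTSL, FUCA2 and ARSB) and of the 3 expressed cystatins, in each NS control (blue) and BCL9 KD (orange) sample, with the mean and SD (n = 3) in black and each vertical axis starting at 0. In every panel the groups do not overlap, and CTSL runs from 9.44 to 9.84 FPKM in NS control and from 13.1 to 16.4 FPKM in BCL9 KD samples.

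The promoters of the genes that passed are shown because the TFEB family acts through short sites near the start of lysosomal genes. Each RefSeq window (GRCh38.p14) runs from 250 bases before to 50 bases after an annotated start, and is written 5′ to 3′ on the strand of the gene, with CACGTG in capitals. CTSL and FUCA2 had 1 window each, and of the 2 windows of ARSB the one with a match is printed.
CTSL, chr9:87725869-87726168, plus strand: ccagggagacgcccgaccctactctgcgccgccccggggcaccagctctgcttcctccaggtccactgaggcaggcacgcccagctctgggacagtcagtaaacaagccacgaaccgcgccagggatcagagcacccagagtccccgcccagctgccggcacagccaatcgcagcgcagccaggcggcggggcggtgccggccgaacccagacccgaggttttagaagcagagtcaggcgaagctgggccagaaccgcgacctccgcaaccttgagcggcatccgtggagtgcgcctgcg
FUCA2, chr6:143511671-143511970, minus strand: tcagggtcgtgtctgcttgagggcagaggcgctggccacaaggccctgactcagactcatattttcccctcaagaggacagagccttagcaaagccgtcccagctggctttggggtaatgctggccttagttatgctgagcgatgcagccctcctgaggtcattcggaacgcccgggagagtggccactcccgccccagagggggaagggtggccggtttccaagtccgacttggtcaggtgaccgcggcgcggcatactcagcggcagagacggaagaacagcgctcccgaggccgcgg
ARSB, chr5:78985909-78986208, minus strand: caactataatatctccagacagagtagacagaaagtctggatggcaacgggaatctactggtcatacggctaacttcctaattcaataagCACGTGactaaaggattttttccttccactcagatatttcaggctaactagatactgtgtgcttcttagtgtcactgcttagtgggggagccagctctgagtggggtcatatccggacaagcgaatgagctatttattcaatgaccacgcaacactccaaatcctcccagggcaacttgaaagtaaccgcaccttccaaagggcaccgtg
No CACGTG lay in the windows of CTSL and FUCA2, and that of ARSB starts 160 bases before its annotated start.

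The longer palindrome TCACGTGA is the extended form of this site. RefSeq windows were found for 32 of the 44 genes, and CACGTG was present in at least 1 window of 8 of them (25%), namely ARSB, CTSA, CTSD, CTSF, GAA, LAMP1, MCOLN1 and NEU1, against 8.77% of all genes with a window. TCACGTGA, which contains CACGTG, was present for 4 of the 32 (12.5%), against 1.18% of all genes. Both motifs read the same on either strand. The 4 genes with TCACGTGA are shown with 20 bases on each side of its first match, in capitals, since they are the members with the fullest form of the site.
CTSA, chr20:45891289-45891336, plus strand: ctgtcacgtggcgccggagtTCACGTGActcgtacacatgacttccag
GAA, chr17:80101484-80101531, plus strand: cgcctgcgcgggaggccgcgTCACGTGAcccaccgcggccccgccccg
LAMP1, chr13:113297190-113297237, plus strand: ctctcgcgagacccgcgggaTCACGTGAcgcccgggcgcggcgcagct
MCOLN1, chr19:7522562-7522609, plus strand: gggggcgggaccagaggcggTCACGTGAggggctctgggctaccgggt
The log2 fold changes of these 4 genes were 0.22 for CTSA, 0.01 for GAA, 0.14 for LAMP1 and −0.28 for MCOLN1, and none passed the test. A match of these letters is a description of the sequence, and binding was not measured here.

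TFEB, TFE3 and MITF themselves did not pass with all 6 samples. TFEB was at 2.02, 1.79 and 1.94 FPKM in NS control and 2.06, 2.02 and 2.10 FPKM in BCL9 KD samples (log2 fold change 0.09, standard error 0.0953, limma adjusted p = 0.576), with the BCL9 KD samples narrowly above without overlap. The log2 fold change of TFEB was 0.05 without NS control replicate 2 and 0.16 with a correction for GC content. TFE3 was the most abundant of the family, at 13.7, 13.3 and 11.1 FPKM in NS control and 11.0, 10.8 and 10.9 FPKM in BCL9 KD samples (log2 fold change −0.20, standard error 0.0928, limma adjusted p = 0.210). The TFE3 groups did not overlap, although NS control replicate 3 lay close to the BCL9 KD samples, and without that replicate TFE3 passed as lower (log2 fold change −0.29, limma adjusted p = 0.0464). With a correction for GC content its log2 fold change was −0.12 (limma adjusted p = 0.283). MITF was at 0.661, 0.928 and 0.703 FPKM in NS control and 0.857, 0.645 and 0.763 FPKM in BCL9 KD samples, with overlapping groups (log2 fold change −0.01, limma adjusted p = 0.979). The order TFE3, TFEB, MITF held in all 6 samples.

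The 13 proteases had a median log2 fold change of 0.20, and 12 of them were above 0. CTSL was the member that passed. For 8 of the 13, CTSA, CTSB, CTSC, CTSL, CTSO, CTSS, CTSZ and TPP1, all BCL9 KD values were above all NS control values, as they were for 17.8% of all genes tested. CTSZ, a cysteine carboxypeptidase, had 52.4, 51.0 and 52.5 FPKM in NS control and 59.4, 73.1 and 71.3 FPKM in BCL9 KD samples (log2 fold change 0.38, standard error 0.0910, limma adjusted p = 0.0566). CTSC, the dipeptidyl peptidase that activates serine proteases of immune cells, had 20.1, 21.3 and 21.4 FPKM in NS control and 24.0, 30.7 and 30.1 FPKM in BCL9 KD samples (log2 fold change 0.42, standard error 0.104, limma adjusted p = 0.0616). In both genes BCL9 KD replicate 1 lay between the NS control samples and the other BCL9 KD samples. CTSS, the cathepsin of antigen-presenting cells, was low, at 0.735 ± 0.0636 FPKM and 1.12 ± 0.0420 FPKM (SD, n = 3 each), from 52 to 133 reads per sample (log2 fold change 0.39, limma adjusted p = 0.107). With voom on reads recovered from the FPKM, CTSS had a log2 fold change of 0.63 and passed (limma adjusted p = 0.0474), and it also passed among protein-coding genes alone (limma adjusted p = 0.0386). The values were 0.16 for CTSB, 0.22 for CTSA, 0.20 for TPP1 and 0.25 for CTSO, with limma adjusted p from 0.132 to 0.212. With GC and length corrected together, a choice made after seeing the data, CTSB was at 0.29 and passed (limma adjusted p = 0.0322), CTSA was at 0.34 and CTSO at 0.09, and TPP1 was at 0.13 with quantile normalization. CTSD, the aspartic protease, was at 95.6, 86.0 and 87.8 FPKM in NS control and 81.3, 91.0 and 88.7 FPKM in BCL9 KD samples, overlapping groups whose log2 difference was −0.05 (limma adjusted p = 0.726). CTSV, the closest relative of CTSL, was at 12.0 ± 0.606 FPKM and 12.6 ± 0.897 FPKM (SD, n = 3 each), and its log2 difference was 0.06 (limma adjusted p = 0.664), or 0.02 to 0.12 with a replicate left out and 0.0049 with a correction for GC content. CTSF, CTSH and CTSK had log2 fold changes of 0.15, 0.08 and 0.10 and overlapping groups. CTSK had 0.0018 with the length correction, and CTSH ran from 0.02 to 0.18 with a replicate left out. Summed over the 13 proteases, the level was 239, 225 and 228 FPKM in NS control and 240, 277 and 271 FPKM in BCL9 KD samples.

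Among the 12 glycosidases FUCA2 passed, 11 had a log2 fold change above 0 and the median was 0.09. The median was 0.17 without BCL9 KD replicate 1 and 0.05 without BCL9 KD replicate 3, and 0.06 with 8 of the 12 above 0 under median-of-ratios scaling and under quantile normalization. The groups did not overlap for FUCA2, GLB1, GUSB, IDUA and MANBA, each with the BCL9 KD samples above, against 17.8% of all genes tested above and 16.4% below. MANBA, the beta-mannosidase, had 2.39, 2.63 and 2.78 FPKM in NS control and 3.33, 3.35 and 3.36 FPKM in BCL9 KD samples (log2 fold change 0.31, limma adjusted p = 0.0793). GLB1, the beta-galactosidase whose activity is used as a marker of senescent cells, went from 10.2 ± 0.296 FPKM to 11.9 ± 0.603 FPKM (SD, n = 3 each), without passing the test (log2 fold change 0.22, limma adjusted p = 0.109). The log2 fold changes were 0.16 for GUSB, the beta-glucuronidase, and 0.32 for IDUA, the alpha-L-iduronidase, which was expressed at under 1.1 FPKM in every sample and had 0.56 with voom. NAGLU was at 0.14, and GAA, GLA, HEXA, MAN2B1 and NEU1 were between 0.01 and 0.04, all with overlapping groups, and the sign of GAA, GLA, HEXA and NEU1 turned with another scaling. FUCA1, the other alpha-L-fucosidase, had overlapping groups and a log2 difference of −0.12 (limma adjusted p = 0.673).

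Of the 4 sulfatases ARSB passed. ARSA and SGSH, which act on sulfatides and on heparan sulfate, had log2 fold changes of 0.23 and 0.16 with the BCL9 KD samples above without overlap (limma adjusted p of 0.219 and 0.260). SGSH had 0.10 with quantile normalization and 0.28 with GC and length corrected together, a choice made after seeing the data. IDS, the iduronate-2-sulfatase, was at 3.34 ± 0.152 FPKM and 3.33 ± 0.0803 FPKM (SD, n = 3 each). The 4 sulfatases lay close together in level, from 3.33 to 4.18 FPKM as means over the 6 samples.

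None of the 7 genes of lipid breakdown passed. PSAP, the precursor of the saposins that present lipids to hydrolases, was the most abundant of the 44 genes, at 409, 411 and 398 FPKM in NS control and 367, 400 and 392 FPKM in BCL9 KD samples (log2 fold change −0.07, limma adjusted p = 0.519). NPC2, which carries cholesterol inside the lysosome, was at 27.9, 24.9 and 27.2 FPKM in NS control and 31.1, 38.8 and 37.1 FPKM in BCL9 KD samples (log2 fold change 0.41, standard error 0.10, limma adjusted p = 0.0594). ASAH1, the acid ceramidase, was at 6.77, 7.54 and 9.55 FPKM in NS control and 9.61, 11.1 and 11.5 FPKM in BCL9 KD samples (log2 fold change 0.42, standard error 0.135, limma adjusted p = 0.106). For ASAH1 the highest NS control sample and the lowest BCL9 KD sample were close. SMPD1, the acid sphingomyelinase, had a log2 fold change of −0.26 and overlapping groups, while LIPA, the acid lipase, GM2A, the ganglioside activator, and PPT1, the palmitoyl thioesterase, had 0.10, 0.15 and 0.05. GM2A had 0.06 without NS control replicate 3 and 0.24 without NS control replicate 1.

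None of the 5 membrane proteins passed. LAMP1 and LAMP2, the abundant glycoproteins of the lysosome membrane, had log2 fold changes of 0.14 and 0.15 (limma adjusted p of 0.260 and 0.315), and the sign of LAMP2 turned with a correction for GC content. SCARB2, the receptor that carries glucocerebrosidase to the lysosome, had 0.34 (limma adjusted p = 0.0937), with means of 15.4 ± 1.95 FPKM and 19.5 ± 0.759 FPKM (SD, n = 3 each). MCOLN1, the calcium channel mucolipin 1, was at 3.27, 2.84 and 2.81 FPKM in NS control and 2.43, 2.53 and 2.11 FPKM in BCL9 KD samples (log2 fold change −0.28, limma adjusted p = 0.145), below without overlap. ATP6AP1, an accessory subunit of the proton pump, had −0.01.

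**Figure D2:**
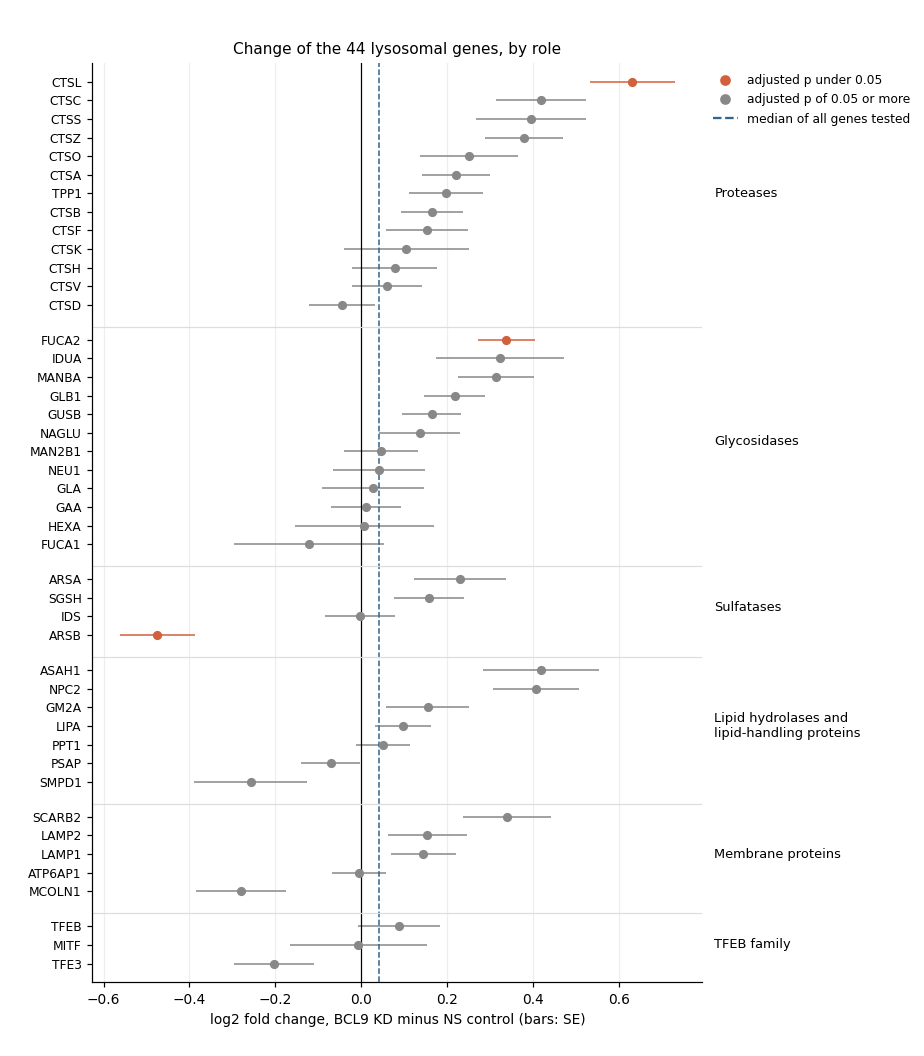
Log2 fold change, BCL9 KD minus NS control, of each of the 44 lysosomal genes by role, with standard errors as bars (limma, 3 against 3 samples). The dashed line is the median of all 13745 genes tested, 0.04, and CTSL (0.63), FUCA2 (0.34) and ARSB (−0.47), in orange, are the genes that passed the test.

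Over all 44 genes, the BCL9 KD values were above the NS control values without overlap for 21 genes and below for 3, ARSB, MCOLN1 and TFE3. Among all genes tested, 17.8% were above and 16.4% below without overlap. The count above was 17 of the 44 with median-of-ratios scaling and 14 with quantile normalization, where 15.5% and 15.0% of all genes tested were above. An unadjusted p under 0.05 was reached by 12 of the 44 genes with a higher and 2 with a lower mean in BCL9 KD cells, against 14.5% and 13.0% of all genes tested. BCL9 KD replicate 1 was the lowest BCL9 KD sample for 16 of the 21 genes, and for 53.7% of all genes tested that were above without overlap. Without BCL9 KD replicate 1, CTSC, CTSZ and NPC2 passed as higher (limma adjusted p of 0.0246, 0.0251 and 0.0336), and without NS control replicate 3 ASAH1 did (0.0347). CTSC, CTSZ and NPC2 also passed with voom and among protein-coding genes alone, and MANBA passed with voom.

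On the FPKM scale, which is per length, the 44 genes spanned from 0.519 FPKM for HEXA to 396 FPKM for PSAP as means over the 6 samples. PSAP, CTSD, CTSZ and LAMP1 came first, and the ranges over the 6 samples did not overlap between PSAP and CTSD, CTSD and CTSZ, or CTSZ and LAMP1. Below LAMP1 and PPT1, most neighbours in the order overlapped. The 44 genes together held 0.389%, 0.387% and 0.380% of the reads on genes in NS control replicates 1 to 3 and 0.388%, 0.424% and 0.418% in BCL9 KD samples, so BCL9 KD replicate 1 lay within the range of NS control. HEXA, the alpha subunit of beta-hexosaminidase, had 102 to 189 reads per sample over a length of 12611 bases in the deposited table, and 16.7% of its exon bases lay in exons of other genes too in the GENCODE annotation. That share was 75.9% for IDS, 48.2% for CTSD, 31.7% for CTSZ and 10.7% for FUCA2, and 0 for CTSL and ARSB. Reads in shared bases may be left uncounted or split, and the levels of these genes are uncertain to that extent.

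**Figure D3:**
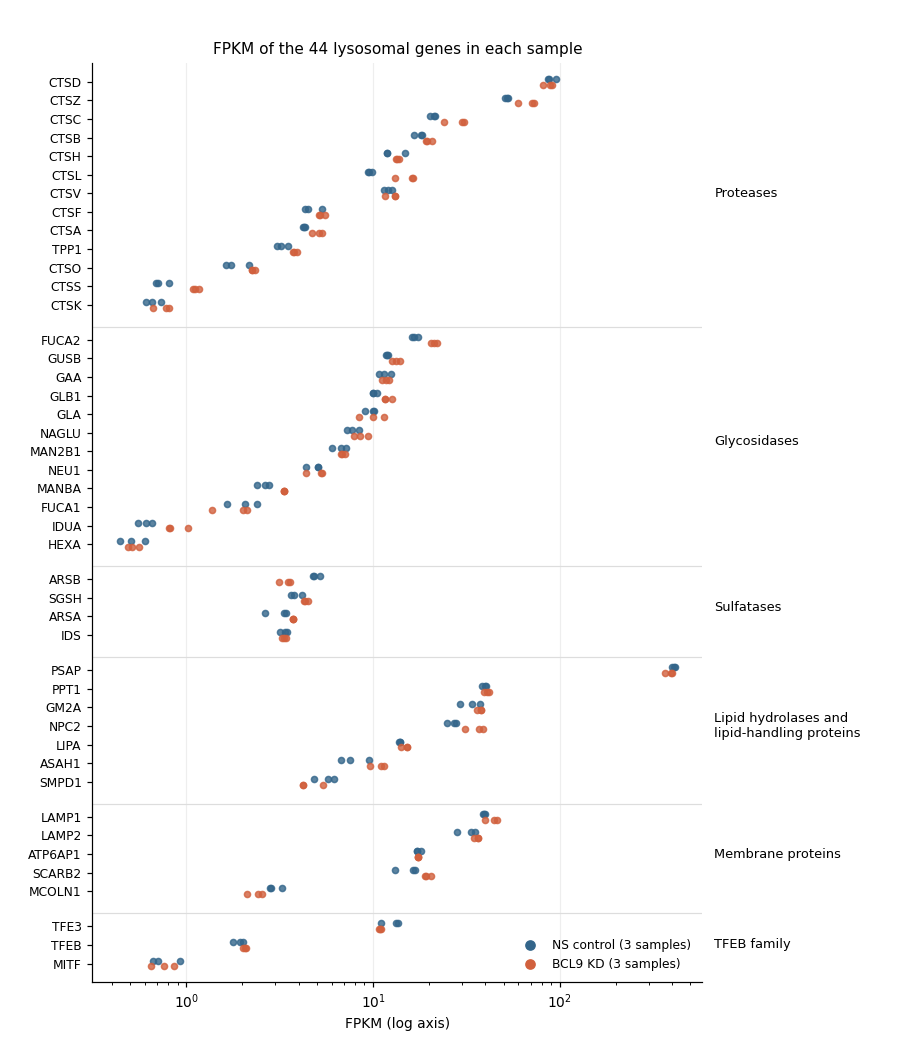
FPKM of the 44 lysosomal genes in each NS control (blue) and BCL9 KD (orange) sample on a log axis, grouped by role and ordered by mean level. The levels run from under 1 FPKM for HEXA, CTSK and MITF to 367 to 411 FPKM for PSAP, and most genes show little distance between the groups relative to the distance between genes.

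Among the genes tested with a known GC content, the median log2 fold change was highest for those of low GC content. It was 0.24 in the lowest of 5 equal bins of GC content of the longest annotated transcript, up to 40.3%, then 0.07, −0.03, −0.04 and −0.04 in the bins above it. ASAH1 (37.3%), CTSC (39.2%), CTSS (39.2%) and LAMP2 (36.0%) are the lysosomal genes in the lowest bin, while FUCA2 (44.2%) is in the next bin up and CTSL (45.1%) and ARSB (47.2%) are in the middle bin. After a loess correction of each sample for GC content, the log2 fold change was 0.21 for ASAH1, 0.28 for CTSC, 0.25 for CTSS and −0.09 for LAMP2. Outside the lowest bin, CTSO went from 0.25 to 0.15 and FUCA1 from −0.12 to −0.05, while CTSF (0.24), GUSB (0.25), LAMP1 (0.22), NAGLU (0.20) and SGSH (0.24) were over 1.5 times their uncorrected values. It was 0.66 for CTSL (limma adjusted p = 0.0133), 0.36 for FUCA2 (limma adjusted p = 0.0174) and −0.42 for ARSB (limma adjusted p = 0.0220). CTSB, CTSZ, GLB1, NPC2, SCARB2 and TPP1 also passed with this correction, each higher in BCL9 KD cells, for a total of 8 higher and 1 lower of the 44, where 7.04% of all genes tested were called higher and 5.17% lower.

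**Figure D4:**
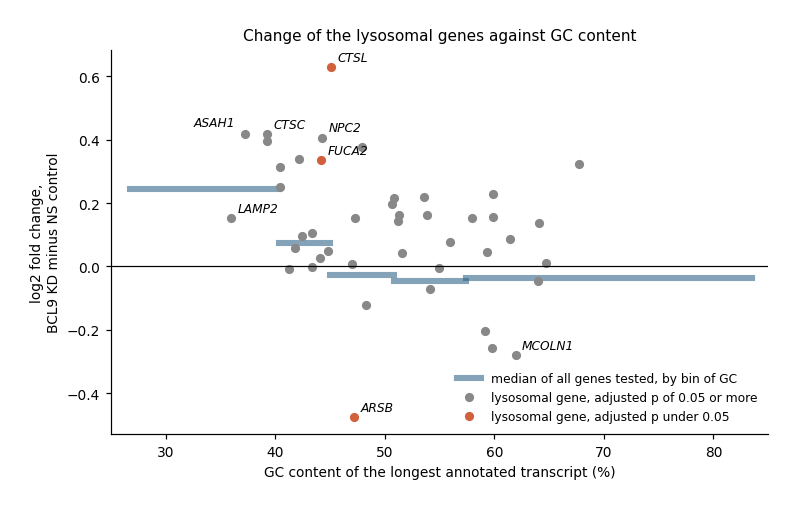
Log2 fold change of the 44 lysosomal genes (points, orange where the adjusted p was under 0.05) against the GC content of the longest annotated transcript, with the median of all genes tested in each of 5 bins of GC content as a bar. The bar of the lowest bin lies at 0.24 and those of the bins of higher GC content between 0.07 and −0.04. ASAH1, CTSC, CTSS and LAMP2 fall in the lowest bin, and of these LAMP2 (0.15) lies below its bar.

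The other genes of the pathway were taken from 7 lists. Over the 134 of them tested, the log2 fold change was above 0 for 68 and its median was 0.0020. For all genes tested, these values were 55.4% and 0.04. Of 24 other lysosomal hydrolases and lumenal proteins tested, SCPEP1 and ACP5 were higher and EPDR1 was lower in BCL9 KD cells. The log2 fold change of these 24 genes was above 0 for 12, with a median of 0.02. Without overlap, 8 were above and 8 below, against 17.8% and 16.4% of all genes tested. The count called higher was 5 with the GC correction, 5 with voom, 6 among protein-coding genes alone and 0 with no filter on low FPKM, each with 1 called lower, but calls over all genes tested moved too, to the shares given above with the GC correction. With voom 5.19% of all genes tested were called higher and 5.01% lower, and among protein-coding genes alone 6.61% and 6.03%. SCPEP1, a serine carboxypeptidase, went from 22.8 ± 1.30 FPKM to 33.5 ± 2.81 FPKM (SD, n = 3 each; log2 fold change 0.54, limma adjusted p = 0.0252). ACP5, the tartrate-resistant acid phosphatase, rose from 1.05 ± 0.231 FPKM to 2.22 ± 0.381 FPKM (log2 fold change 0.81, limma adjusted p = 0.0408). EPDR1, a lipid-binding lumenal protein, was at 9.96, 11.5 and 9.70 FPKM in NS control and 3.48, 3.46 and 3.19 FPKM in BCL9 KD samples, and its log2 fold change of −1.49, with a standard error of 0.0900 (limma adjusted p = 0.00269) was close in size to the largest rise among these lists, that of CSTA. EPDR1 also passed with each replicate left out in turn (limma adjusted p of 0.00703 to 0.0410).

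Of 24 other membrane proteins tested, GPR137B passed, higher in BCL9 KD cells by 0.45 on the log2 scale (limma adjusted p = 0.0290). None of the 17 V-ATPase subunits tested passed, although 4 had a higher and 1 a lower mean at an unadjusted p under 0.05 with limma, against 14.5% and 13.0% of all genes tested. With the GC correction 2 of the 17 were called higher and 0 lower, with voom 0 and 1, and with protein-coding genes alone 1 and 1. Without BCL9 KD replicate 1, 2 were called higher and 0 lower, and without NS control replicate 3, 0 and 1. Of 16 genes of mannose 6-phosphate tagging and sorting, the Golgi adaptor genes AP1G1 (log2 fold change −0.49, limma adjusted p = 0.0387) and GGA2 (−0.37, limma adjusted p = 0.0340) were lower. With GC and length corrected together, chosen after seeing the data, GGA2 was at −0.23 and passed (limma adjusted p = 0.0420). Of 28 autophagy genes tested, VPS18, a subunit of the tethering complex that fuses vesicles with lysosomes, was lower (−0.61, limma adjusted p = 0.0182).

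Of 22 genes of nutrient sensing at the lysosome, LAMTOR2 (0.63, limma adjusted p = 0.0477), LAMTOR4 (0.54, limma adjusted p = 0.0486) and LAMTOR5 (0.75, limma adjusted p = 0.0308) were higher. They encode subunits of the Ragulator complex that anchors the Rag GTPases on the lysosome. LAMTOR1 and LAMTOR3, of the same complex and also in the list, did not pass. Over the 22 genes, the log2 fold change was above 0 for 10 and below 0 for 12, with a median of −0.08. RPTOR, the mTORC1 scaffold that the Rag GTPases recruit, was lower (−0.51, limma adjusted p = 0.0466). With a correction for gene length, chosen after seeing the data, GPR137B (limma adjusted p = 0.0735), LAMTOR4 (limma adjusted p = 0.0563) and RPTOR (limma adjusted p = 0.0654) no longer passed. With no filter on low FPKM, none of the 4 genes of nutrient sensing passed (limma adjusted p of 0.0875 to 0.128), nor did AP1G1 (0.0946), GGA2 (0.0602), GPR137B (0.0606), SCPEP1 (0.0664) or ACP5 (0.117). Without the variance trend, those 4 (0.0512 to 0.0732), AP1G1 (0.0616), GGA2 (0.0563) and ACP5 (0.0524) missed the threshold. With median-of-ratios scaling, LAMTOR2 (0.0597), LAMTOR4 (0.0612), RPTOR (0.0520) and ACP5 (0.0507) missed it, as ACP5 did with quantile normalization (0.0659). With voom and among protein-coding genes alone, 4 genes of nutrient sensing were called higher and 3 lower, and of the sorting genes 1 was called higher and 3 lower, settings in which more of all genes tested were also called, as given above. Of the genes of these lists, all but EPDR1 missed the threshold when NS control replicate 2, BCL9 KD replicate 2 or BCL9 KD replicate 3 was left out, with limma adjusted p up to 0.198 for LAMTOR4 and 0.118 for VPS18. GGA2 and ACP5 also missed it without BCL9 KD replicate 1, and RPTOR, LAMTOR2 and LAMTOR4 without NS control replicate 1, and none changed direction.

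Cystatins are tight inhibitors of cysteine cathepsins, and 3 of the 9 in the list were expressed highly enough to be tested. All 3 were called higher in BCL9 KD cells, as were 2.96% of all genes tested. The list was chosen with earlier results of these data known, so this count is a description only. CST3, the secreted cystatin C, was at 23.8, 20.5 and 19.9 FPKM in NS control and 30.4, 37.6 and 35.0 FPKM in BCL9 KD samples (log2 fold change 0.67, standard error 0.106, limma adjusted p = 0.0255). CSTB, a cytosolic stefin, was at 40.5, 34.3 and 39.7 FPKM in NS control and 54.3, 77.3 and 72.9 FPKM in BCL9 KD samples (log2 fold change 0.82, standard error 0.143, limma adjusted p = 0.0319). CSTA, the stefin of squamous epithelium, was at 6.83, 6.59 and 7.18 FPKM in NS control and 15.2, 21.9 and 22.4 FPKM in BCL9 KD samples, with means of 6.86 ± 0.296 FPKM and 19.8 ± 4.02 FPKM (SD, n = 3 each; log2 fold change 1.45, limma adjusted p = 0.00976). The groups did not overlap for any of the 3, and BCL9 KD replicate 1 was the lowest BCL9 KD sample each time. With the GC correction the log2 fold changes were 0.71 for CST3, 0.90 for CSTB and 1.20 for CSTA, and all 3 passed, while with no filter on low FPKM CST3 (limma adjusted p = 0.0754) and CSTB (limma adjusted p = 0.0935) did not, nor did CSTB without the variance trend (limma adjusted p = 0.0535). Without NS control replicate 2, BCL9 KD replicate 2 or BCL9 KD replicate 3 none of the 3 passed, with limma adjusted p up to 0.140 for CST3, 0.157 for CSTB and 0.0700 for CSTA, while the log2 fold changes stayed at or above 0.60, 0.72 and 1.35.

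Macrophages are rich in lysosomal enzymes, and their markers other than CD14 were near 0. The 6 macrophage markers summed to 0.379 to 0.629 FPKM in NS control and 0.911 to 1.58 FPKM in BCL9 KD samples, of which CD14 made up most, and PTPRC, CD163 and LYZ were at under 0.1 FPKM in every sample. CD14 did not pass (log2 fold change 0.73, limma adjusted p = 0.0811). The 4 endothelium markers summed to 1.80 to 2.42 FPKM in NS control and 3.22 to 4.06 FPKM in BCL9 KD samples, with PECAM1 passing (log2 fold change 0.61, limma adjusted p = 0.0477) while VWF and CDH5 were at under 0.1 FPKM in every sample. The 6 fibroblast markers summed to 0.548 to 0.624 FPKM and 0.652 to 0.749 FPKM, with COL3A1 listed at 0. The part of these cells or genes in the lysosomal values was not tested.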

How the data were processed

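RNA from 3 NS control and 3 BCL9 KD samples of DCIS.COM cells, each from its own T75 flask, was sequenced from NEBNext Ultra libraries. The labels give 3 replicates per group and the methods 2, and all 6 samples of the deposited table were used. Per the labels, the submitters' processing notes name CASAVA, STAR, HTSeq 0.6.1 and hg38, and the authors deposited FPKM per gene. The methods also name Tophat and Cufflink, and the authors tested counts with DESeq2, whereas the values here are FPKM, so limma took its place. The product of FPKM and gene length was, for 100% of values in each sample, a whole multiple of what a read is worth (tolerance 0.1), which gave reads and depths. The libraries carry no stated molecular identifiers, so reads cannot be taken as separate molecules.

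Genes with a mean of at least 0.5 FPKM were fitted with limma 3.58.1 (R 4.3.3) on log2(FPKM + 0.5) and eBayes with trend, where the added value understates changes of low genes. GC content was that of the longest transcript in the GENCODE annotation of GRCh37, matched by gene ID and known for 98.8% of genes tested. Exon sharing came from the same annotation, which is not stated to be the version the authors counted with, and the strandedness of the counting is not given in the sources used here. Promoters were RefSeq's, on GRCh38.p14. The scripts used Python 3.11, pandas 2.3.3, numpy 2.4.6, scipy 1.17.1 and matplotlib 3.10.9, and the fit was tested on simulated data.

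The 44 genes and the lists of other genes and markers were chosen with earlier results of these data known. Values in every sample were given for members past the threshold, the 3 most abundant, the 3 largest changes among the others and the TFEB family, and other values shown per sample were chosen after they were seen. Genes of other lists were named where they passed, at most 3 each way per list. Alternatives changed the added value, the filter, the scaling, the trend, GC content, the genes tested and the samples, and used voom on the recovered reads or the replicate block. Corrections for gene length were added after seeing the data. Replicate numbers 1 to 3 occur in both groups, and no label says that a number marks a shared culture or day.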

Additional observations from a re-analysis of the deposited data

How the results depend on the processing

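The counts of lysosomal genes called moved with the processing, and not always with the count over all genes. The totals over all genes given here hold both directions. Shares by direction are given above for the main fit, the GC correction, voom and protein-coding genes alone. Counts of lysosomal genes under other settings cannot be set against such a share. CTSL, FUCA2 and ARSB kept their direction under every alternative. With no filter on low FPKM, 142 genes were called and of the 44 lysosomal genes 0 were higher and 0 lower. Without the mean-variance trend, 332 genes were called, with 1 lysosomal gene higher and 0 lower. Voom on the recovered reads called 1403 genes, with 7 lysosomal genes higher, the GC correction 1678, with 8 higher, and protein-coding genes alone 1409, with 6 higher. Of the corrections added after seeing the data, that for length left 0 lysosomal genes lower, with a median log2 fold change of 0.11 over the 44, and that for GC content and length called 1261 genes, with 6 lysosomal genes higher and a median of 0.17. Median-of-ratios scaling called 646 genes, against 807 without it, and left 1 lysosomal gene higher, with a median of 0.11, and quantile normalization called 1083 genes, with 5 lysosomal genes higher, with a median of 0.10, where the median over all genes tested was 0.01 and −0.01, against 0.04 without them. Leaving out a replicate in turn gave 5 to 1729 genes called (12 without NS control replicate 2, 13 without BCL9 KD replicate 2, 5 without BCL9 KD replicate 3, 748 without BCL9 KD replicate 1, where 4 lysosomal genes were higher, and 1729 without NS control replicate 3, where 3 were), 0 to 4 lysosomal genes higher, 0 to 2 lower and a median of 0.11 to 0.15. Leaving out NS control replicate 1 moved CTSF from 0.15 to 0.23, LAMP2 from 0.15 to 0.06 and CTSK from 0.10 to 0.07, leaving out NS control replicate 2 moved CTSF to 0.10, leaving out NS control replicate 3 moved ARSA from 0.23 to 0.13, and leaving out BCL9 KD replicate 3 moved NAGLU from 0.14 to 0.07. The cause of these moves was not tested. Depth limits CTSK most, with 21 to 34 reads per sample, and IDUA, FUCA1, CTSS, MITF, CTSO and HEXA had at most 189.

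With the replicate number as a replicate block, limma called 0 genes, 0 lysosomal genes among them, while 3235 genes had an unadjusted p under 0.05; the adjusted p was 0.0870 for CTSL, 0.120 for FUCA2 and 0.0990 for ARSB. The GC correction with the replicate block called 172 genes, 0 of the 44 among them, while SCPEP1 (adjusted p of 0.0354) and EPDR1 (0.0283) of the other hydrolases and lumenal proteins still passed. Samples with the same number had, after subtraction of the mean of their own group, correlations of −0.147 to −0.00287 across genes. Pairs across the groups with different numbers had −0.0988 to 0.159. Each deviation is from a mean of only 3 samples, so these correlations cannot decide whether a number marks a shared culture or day.

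Of the 15 lysosomal genes with a log2 fold change under 0.1 in size, 14, all but LIPA, moved by over 1.5 times under at least 1 alternative, between −0.161 and 0.199, and 0 of the 15 passed under any. Reversals of sign were found among genes whose change was small and did not pass. They were GLA (−0.00417), GAA (−0.0206) and HEXA (−0.00883) with median-of-ratios scaling, GAA (−0.00344), NEU1 (−0.0137) and HEXA (−0.0582) with quantile normalization, and IDS (0.00074) with voom. With the GC correction, with or without the replicate block, they were LAMP2 (−0.0920), IDS (9.7e-05), ATP6AP1 (0.0714), CTSD (0.0244) and PSAP (0.0076). With the length correction they were IDS (0.0414), ATP6AP1 (0.0075), GLA (−0.0639) and MITF (0.0222), and with GC and length together LAMP2 (−0.0589), IDS (0.0690), ATP6AP1 (0.0897), GLA (−0.0741) and CTSK (−0.0244). With a replicate left out, the log2 fold change ran from −0.0211 to 0.0194 for ATP6AP1, −0.0782 to 0.0022 for CTSD, −0.0462 to 0.0639 for HEXA, −0.0350 to 0.0206 for IDS, −0.0659 to 0.0832 for MITF, −0.0257 to 0.123 for NEU1, −0.0761 to 0.138 for GLA, −0.0199 to 0.0989 for MAN2B1, −0.0381 to 0.0641 for GAA and −0.233 to 0.0303 for FUCA1.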
